A study of Homo sapiens with 12 samples.

Results

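Transcripts of HUDEP-2 cells that carried a guide RNA against an EGR1 control element were compared with those of cells that carried a scrambled guide, before the Kit receptor was stimulated. HUDEP-2 is an immortalised human erythroid precursor line that needs Kit signalling to survive and grow. The comparison held 6 of the 12 RNA-seq libraries of the series, 3 labelled sgEGR1 PBS and 3 labelled sgControl PBS, and every expressed gene was examined. Both groups carried dCas9-KRAB, a nuclease-dead Cas9 fused to a repressor domain that silences chromatin where the guide binds, and an EGFP by which transduced cells were sorted. The methods describe sorting but no cloning, so the cells of each guide are called a pool here. Whether the replicates of a guide came from the same transduction is not stated. With 1 guide per group, an effect of the guide cannot be told apart from any other difference between the pools. Both pools were expanded with dexamethasone, stem cell factor (SCF), erythropoietin and doxycycline, deprived of growth factors for 5 h in medium with albumin, and given PBS for 1 h. The remaining 6 libraries, sgEGR1 SCF and sgControl SCF, received 50 ng/mL SCF in place of PBS for 1 h.

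EGR1 encodes a zinc finger transcription factor that many receptor tyrosine kinases induce within minutes to an hour. SCF binds Kit, Kit signals through Ras and ERK, and ERK activates ternary complex factors that sit with serum response factor on CArG boxes of the EGR1 promoter. EGR1 protein binds GC-rich sites and induces NAB2, a corepressor that limits EGR activity. The libraries taken after PBS show the level of this system, and of the rest of the transcriptome, at rest.

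The sgEGR1 guide is shown because it sets that pool apart by design, together with its genomic site, in which capitals mark the PAM.
sgEGR1 guide: ggatgacagcgatagaaccc
sgEGR1 site with PAM: ggatgacagcgatagaacccCGG
The sgEGR1 guide matched hg38 exactly at 1 site, chr5:138464830-138464849 on the plus strand. Counted from the annotated start of EGR1, its first base is at position -649, outside every gene and exon of GENCODE v44. The paper places the element that it targeted farther upstream of EGR1 than this position. No site with 1 or 2 mismatches and an NGG PAM was found. Of the 3 sites with 3 mismatches, 1 lies in an intron of PKNOX2, 1 in an intron of PDE11A and 1 between genes with CBLB as the nearest coding start. PKNOX2 was at 0 CPM in all 6 PBS libraries and PDE11A at 0 to 0.469 CPM, where CPM is the count relative to the library total, scaled by TMM factors. CBLB stood at 44.6, 49.2 and 55.7 CPM in sgControl PBS and at 49.1, 56.0 and 54.6 CPM in sgEGR1 PBS, which overlap.

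The 6 PBS libraries held 23498065 to 29112768 counts, and 15492 of 54628 listed genes had enough counts to be tested. Replicate 1 of both guides stood apart. The leading principal component of the 6 libraries, with 35.5% of the variance, placed the replicate 1 libraries at -20.2 and -27.0 and the others at 9.04 to 13.6. The second component, with 18.9% of the variance, held the sgControl libraries at -16.5 to -6.87 and the sgEGR1 libraries at 3.18 to 19.0. The library labelled sgEGR1 SCF replicate 3 went against its label, with EGR1 at 203 CPM inside the sgControl SCF range of 171 to 239 CPM and far from the 40.4 and 57.3 CPM of its group. It is not among the 6 PBS libraries, but it enters the estimate of spread wherever all 12 libraries were fitted. The number of calls and the results for EGR1 and HBG2 are therefore given with and without it. Other genes are mostly given from fits that include it or from the 6 PBS libraries alone.

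EGR1 was lower in every sgEGR1 PBS library than in any sgControl PBS library. It stood at 10.9, 5.98 and 7.44 CPM in sgControl PBS replicates 1, 2 and 3 and at 2.04, 1.12 and 0.976 CPM in sgEGR1 PBS. The groups did not overlap, and within each replicate number the sgEGR1 library was the lower. In bulk RNA, fewer cells that express a gene and less RNA per cell cannot be told apart. The means were 8.10 ± 2.51 CPM (SD, n = 3) and 1.38 ± 0.579 CPM (SD, n = 3), a 5.87-fold difference. The edgeR log2 fold change was -2.59 (SE 0.80) with an unadjusted p of 0.00721, and the adjusted p was 0.999 with all 12 libraries and no replicate term, 0.361 with a term for replicate 1 and 0.370 with the replicate number as a block. Without the library labelled sgEGR1 SCF replicate 3 and with a term for replicate 1 the edgeR adjusted p was 0.0160, and from the 6 PBS libraries alone with that term it was 0.00138. DESeq2 on all 12 libraries gave 0.0381. An exact two-sided permutation test of the log2 CPM gave p = 0.1, the smallest that 20 arrangements allow.

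**Figure D1:**
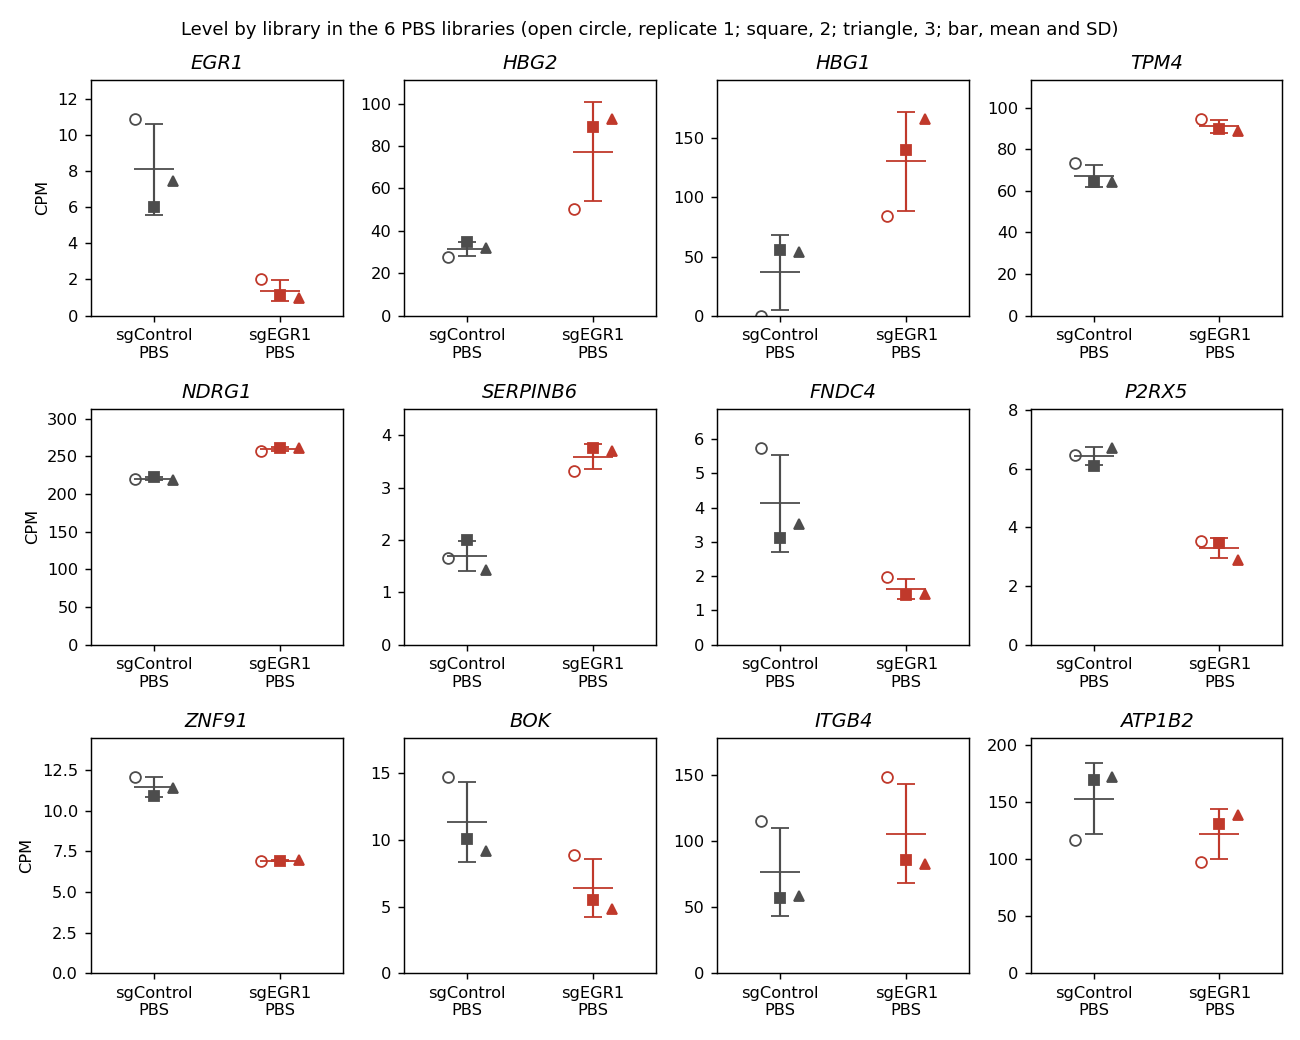
CPM of 12 genes (y axes, each from 0) in the 3 sgControl PBS and the 3 sgEGR1 PBS libraries (x axes); symbols stand for replicate numbers, the long bar for the mean and the whiskers for 1 SD. EGR1 lies between 0.976 and 2.04 CPM in sgEGR1 PBS and between 5.98 and 10.9 CPM in sgControl PBS, while ITGB4 and ATP1B2 overlap between groups and keep their order within each replicate number.

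The EGR1 promoter is shown because the guide lies upstream of it and because the CArG boxes through which ERK signalling reaches the gene stand in it. The 250 bases before the start, chr5:138465229-138465478 on the plus strand (RefSeq, GRCh38.p14), read as follows, with the CArG boxes in capitals.
EGR1 promoter: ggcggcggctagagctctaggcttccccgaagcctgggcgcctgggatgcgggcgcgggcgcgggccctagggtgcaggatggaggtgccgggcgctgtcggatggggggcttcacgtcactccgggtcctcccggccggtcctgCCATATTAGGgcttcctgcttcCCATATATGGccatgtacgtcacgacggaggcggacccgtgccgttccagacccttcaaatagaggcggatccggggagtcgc
The boxes begin 105 and 83 bases before the start, and the guide site lies outside this window. CArG boxes on either strand were present in 1.16% of 35116 promoter windows of this build, each searched over the 250 bases before the start.

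The relatives and cofactors of EGR1 differed by less. EGR2 stood at 3.65, 5.27 and 4.65 CPM in sgControl PBS and at 3.02, 4.65 and 3.98 CPM in sgEGR1 PBS, and EGR3 was at 0 in all 6 libraries. NAB2, the EGR-induced corepressor, stood at 21.9, 20.1 and 19.2 CPM in sgControl PBS and at 16.6, 16.3 and 17.0 CPM in sgEGR1 PBS. The NAB2 groups did not overlap, yet the log2 fold change of -0.30 (SE 0.26) had an edgeR adjusted p of 0.999, and of 0.183 in the 6 PBS libraries with a term for replicate 1. NAB2 exons overlap those of STAT6 on the opposite strand, and the sources used here do not state whether counting used strand. Of the 6 genes of the EGR and NAB list that were tested, only EGR1 had an unadjusted p under 0.05, and the median log2 fold change was -0.18 against 0.00063 over all genes tested.

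No gene around EGR1 was called. Of 27 coding neighbours on chromosome 5, 21 were tested and 0 had an unadjusted p under 0.05 in edgeR without a replicate term. With a term for replicate 1, beside 10.5% of all genes, 1 was higher and 0 were lower. This was ETF1, with a log2 fold change of 0.080 (SE 0.030) and an unadjusted edgeR p of 0.0175 in that fit. Without a replicate term the log2 fold changes of the 21 ran from -0.36 for PROB1 to 0.18 for SLC23A1, both at a mean under 1 CPM. The nearest expressed neighbours were REEP2, whose start is at position -26422 from that of EGR1, and ETF1, whose start lies 77757 bases downstream. Without a replicate term their log2 fold changes were -0.34 (SE 0.34) and 0.08 (SE 0.064).

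Few genes were called across the transcriptome. With all 12 libraries and no replicate term, edgeR called 0 of 15492 genes (0%) at an adjusted p under 0.05, while 715 genes (4.62%) had an unadjusted p under 0.05, 351 higher (2.27%) and 364 lower (2.35%) in sgEGR1. A term for replicate 1 gave 4 calls (0.0258%), ITGB4, HSPG2 and ADAMTS7P3 higher (0.0194%) and ATP1B2 lower (0.00645%), and 1625 genes (10.5%) with an unadjusted p under 0.05. The replicate block gave 2 calls (0.0129%), ITGB4 higher (0.00645%) and ATP1B2 lower (0.00645%). The number of calls depended on which libraries set the spread. The 6 PBS libraries with a term for replicate 1 gave 27 calls (0.174%), 12 higher (0.0775%) and 15 lower (0.0968%), with the block they gave 10 (0.0645%), and without any replicate term they gave 0 (0%) with 567 unadjusted (3.66%). Without the library labelled sgEGR1 SCF replicate 3, and with a term for replicate 1, edgeR called 54 genes (0.349%). Of these, 24 were among the 27, that is 88.9% of the shorter and 44.4% of the longer list. Also among the 54 were IL2RB, CNN3, KDELR3, COL8A2, SERPINB6, PKP3 and CRYM, which are described below from other fits. DESeq2 called 20 genes (0.129%), 9 higher (0.0581%) and 11 lower (0.071%), and 12 of the 20 were at 0 in every library of one group.

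Differences were small. Among 11216 genes of at least 2 mean CPM, 95% had an absolute log2 fold change under 0.28, and 25 passed 2-fold. CPM did not overlap between the groups for 720 genes that were higher (4.65%) and 721 that were lower (4.65%) in sgEGR1, 1441 in all (9.3%). Absence of overlap is therefore given for named genes as a description and not as a test. With an unadjusted p under 0.05 besides, 273 higher (1.76%) and 275 lower (1.78%) remained, 548 in all (3.54%). With at least 2 CPM as well, 224 higher genes (1.45%) and 166 lower genes (1.07%) remained, and the genes described next are led by the extremes of these 390. The 27 genes called from the 6 PBS libraries are described as well, but apart from those the naming rule already held they were chosen after their values were seen.

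**Figure D2:**
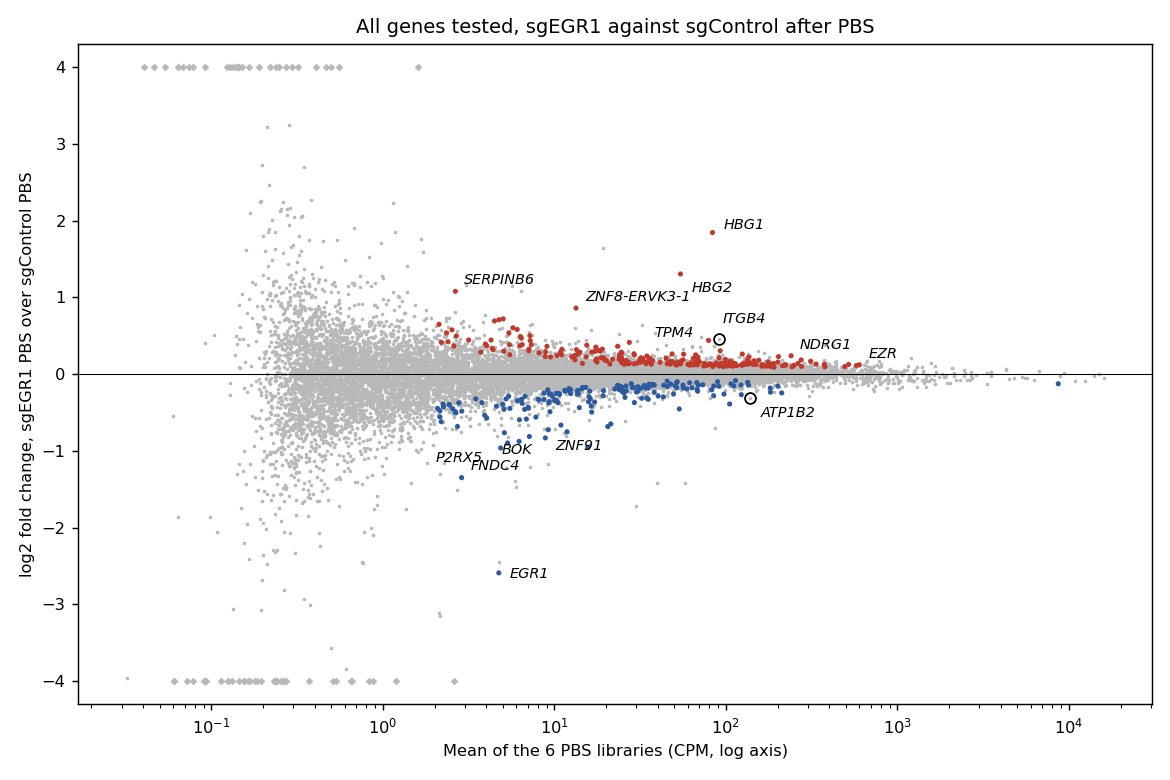
Log2 fold change of sgEGR1 PBS over sgControl PBS (y axis) against the mean CPM of the 6 PBS libraries (x axis, log scale) for the genes tested; diamonds stand for genes beyond 4 log2 units, coloured points for the 224 higher (red) and 166 lower (blue) genes without overlap at an unadjusted p under 0.05 and at least 2 CPM, and open rings for ITGB4 and ATP1B2. EGR1 at -2.59 and HBG1 and HBG2 at 1.84 and 1.30 are among the 25 genes of at least 2 CPM that passed 2-fold. So are SCARA3 at -3.16, RPL36A-HNRNPH2 at -1.42 and RAB4B-EGLN2 at 1.64, whose groups overlapped.

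Fetal globin transcripts were higher in the sgEGR1 pool. Gamma globin, encoded by the near-identical genes HBG1 and HBG2, is the beta-like chain of fetal hemoglobin and is mostly replaced by HBB in adult erythroid cells such as HUDEP-2. HBG2 (chromosome 11, gene model 5253188 to 5505605 in GENCODE v44, whose exons overlap those of HBE1, OR51B5 and unnamed models on the same strand) stood at 27.8, 34.6 and 31.7 CPM in sgControl PBS and at 50.4, 88.8 and 92.7 CPM in sgEGR1 PBS. The groups did not overlap, and replicate 1 was the lowest library of each.

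The mean of HBG2 was 31.4 ± 3.37 CPM (SD, n = 3) against 77.3 ± 23.4 CPM (SD, n = 3), a 2.47-fold difference. The edgeR log2 fold change was 1.30 (SE 0.29) with an unadjusted p of 0.000652, and the adjusted p was 0.879 without a replicate term, 0.0936 with a term for replicate 1 and 0.115 with the block. DESeq2 on the 12 libraries did not call it either (adjusted p 0.0568). HBG2 was called from the 6 PBS libraries with a term for replicate 1 (edgeR adjusted p 0.00902) and with the block (0.0258), and from 11 libraries without the one labelled sgEGR1 SCF replicate 3 with a term for replicate 1 (0.00509). An exact permutation test gave p = 0.1, again the smallest possible.

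HBG1 (chromosome 11, 5248269 to 5249857) stood at 0, 55.7 and 53.8 CPM in sgControl PBS and at 84.6, 140 and 166 CPM in sgEGR1 PBS. The groups did not overlap, but 1 sgControl library listed no count at all, and the log2 fold change of 1.84 (SE 0.80) had an edgeR adjusted p of 0.999 without a replicate term. Because the counting could divide reads between the near-identical gamma globin genes in any proportion, the division is uncertain and their sum was taken too. HBG1 and HBG2 together gave 27.8, 90.3 and 85.5 CPM in sgControl PBS and 135, 229 and 259 CPM in sgEGR1 PBS. As a share of the summed CPM of HBB, HBD, HBE1, HBG1 and HBG2, this was 0.202%, 0.558% and 0.527% against 0.839%, 1.499% and 1.68%, so gamma globin was a minor part of beta-like transcripts in every library.

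The other globins overlapped between the groups. HBB, the adult beta chain, ranged from 13480 to 15810 CPM in sgControl PBS and from 14750 to 15570 CPM in sgEGR1 PBS. HBD, embryonic HBE1, HBA1 and HBA2 overlapped as well. Of 12 globin and AHSP genes, 2 were higher and 0 lower at an unadjusted p under 0.05 in edgeR without a replicate term. With a term for replicate 1, beside 10.5% of all genes, 3 were higher (HBG1, HBG2 and the pseudogene HBBP1) and 3 lower (HBA1, HBM and AHSP), and 0 were called. Among 19 tested regulators of fetal globin, 1 passed the unadjusted threshold without a replicate term. This was NR2C2, a nuclear receptor of the DRED repressor complex, with a log2 fold change of 0.20 (SE 0.084) and an edgeR adjusted p of 0.999. BCL11A, the main repressor of gamma globin, stood at 37.9, 50.1 and 43.96 CPM in sgControl PBS and at 34.3, 40.6 and 43.3 CPM in sgEGR1 PBS. KLF1, the activator of HBB and BCL11A, stood at 683 to 803 CPM and at 734 to 761 CPM. Both regulators overlapped between the groups. With a term for replicate 1, beside 10.5% of all genes, 2 of the 19 regulators were higher (NFIX and NR2C2) and 3 lower (BCL11A, MYB and SOX6) at an unadjusted p under 0.05, and 0 were called. BCL11A was the lower of each pair within all 3 replicate numbers, narrowly in replicate 3, with an unadjusted edgeR p of 0.324 without a replicate term. The share of all genes that keep 1 direction in all 3 replicate numbers is not given here. A link between BCL11A and gamma globin was not tested.

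Genes at a lower level in every sgEGR1 library included FNDC4, P2RX5 and IL2RB. FNDC4, a fibronectin type III domain protein, stood at 5.74, 3.11 and 3.53 CPM in sgControl PBS and at 1.96, 1.45 and 1.46 CPM in sgEGR1 PBS. P2RX5, an ATP-gated cation channel, stood at 6.46, 6.10 and 6.71 CPM and at 3.53, 3.46 and 2.89 CPM. IL2RB, a subunit of the interleukin 2 and 15 receptors, stood at 10.8, 7.91 and 8.57 CPM and at 5.87, 4.28 and 5.40 CPM. None of these 3 genes overlapped between the groups. The log2 fold changes were -1.35 (SE 0.28) for FNDC4, -0.96 (SE 0.28) for P2RX5 and -0.81 (SE 0.23) for IL2RB, and none was called by edgeR without a replicate term (adjusted p 0.869, 0.999 and 0.999). With a term for replicate 1 in the 6 PBS libraries, FNDC4 and P2RX5 were called (0.0328 and 0.0420) and IL2RB was not (0.0566).

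ZNF91 was also lower in every sgEGR1 PBS library. ZNF91, a KRAB zinc finger repressor of retroelements, stood at 12.1, 10.9 and 11.4 CPM in sgControl PBS and at 6.94, 6.89 and 6.97 CPM in sgEGR1 PBS. The groups lay wholly apart. Its log2 fold change was -0.73 (SE 0.17), with an edgeR adjusted p of 0.989 without a replicate term, 0.0328 in the 6 PBS libraries with a term for replicate 1 and 0.0617 with the block.

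Other lower genes without overlap were CNN3, KDELR3, RASGEF1A and NPW. CNN3, an actin-binding calponin, stood at 12.4, 17.4 and 14.8 CPM in sgControl PBS and at 9.75, 8.45 and 8.30 CPM in sgEGR1 PBS (log2 fold change -0.75, SE 0.18). KDELR3, a receptor that returns chaperones to the endoplasmic reticulum, stood at 8.27, 7.08 and 5.43 CPM and at 4.77, 3.58 and 2.86 CPM (-0.90, SE 0.28). RASGEF1A, a guanine nucleotide exchange factor for Ras-family GTPases, stood at 5.63, 6.97 and 6.71 CPM and at 3.58, 3.84 and 3.94 CPM (-0.76, SE 0.24). These 3 genes and NPW, a neuropeptide precursor with -0.88 (SE 0.29), did not overlap between the groups and had edgeR adjusted p of 0.999 without a replicate term. DOK3, an inhibitory adaptor, and FGFR1, a receptor tyrosine kinase, had log2 fold changes of -0.60 (SE 0.27) and -0.72 (SE 0.30) and were called in the 6 PBS libraries with a term for replicate 1 (adjusted p 0.0269 and 0.0420). DOK3 ranged from 14.1 to 21.9 CPM in sgControl PBS and from 8.98 to 15.2 CPM in sgEGR1 PBS. FGFR1 ranged from 9.33 to 17.0 CPM and from 5.995 to 10.4 CPM. The groups of both genes thus overlapped unless compared within replicate numbers.

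Further calls of the 6 PBS libraries with a term for replicate 1 were smaller. They held CARNS1, which makes carnosine, at -0.45 (SE 0.057) on the log2 scale, KIFC2, a kinesin, at -0.39 (SE 0.050), ADAMTSL4, a matrix protein, at -0.38 (SE 0.054), and TMSB10, which binds actin monomers, at -0.25 (SE 0.033). COL8A2, a collagen chain called by DESeq2 on 12 libraries (adjusted p 0.0382), stood at 1.44, 1.34 and 1.36 CPM in sgControl PBS and at 0.511, 0.410 and 0.453 CPM in sgEGR1 PBS. SEPT5-GP1BB, a readthrough model between neighbouring genes, ranged from 15.7 to 28.7 CPM and from 5.86 to 13.5 CPM, and reads of its parts cannot be separated from it here.

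TPM4, NDRG1, EZR and CPD were among the higher genes. TPM4, a tropomyosin, stood at 73.3, 64.3 and 64.1 CPM in sgControl PBS and at 94.6, 89.8 and 88.9 CPM in sgEGR1 PBS. NDRG1, a stress- and iron-responsive cytoplasmic protein, stood at 220, 222 and 218 CPM and at 256, 261 and 261 CPM. Both lay wholly apart, with log2 fold changes of 0.44 (SE 0.078) for TPM4 and 0.24 (SE 0.044) for NDRG1. In the 6 PBS libraries with a term for replicate 1 both were called (edgeR adjusted p 0.0125 and 0.0373), and DESeq2 called both on 12 libraries (0.000457 each). EZR, which ties actin to the membrane, stood at 561, 581 and 581 CPM in sgControl PBS and at 616, 620 and 637 CPM in sgEGR1 PBS, a log2 fold change of 0.12 (SE 0.036). CPD, a membrane carboxypeptidase, had 0.22 (SE 0.045), and DESeq2 called EZR and CPD (adjusted p 0.0382 and 0.0295) where edgeR did not (0.999 and 0.869).

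Genes of low level that were higher in sgEGR1 without overlap included SERPINB6, PKP3 and SPNS2. SERPINB6, a serine protease inhibitor, stood at 1.66, 2.01 and 1.43 CPM in sgControl PBS and at 3.32, 3.76 and 3.70 CPM in sgEGR1 PBS (log2 fold change 1.08, SE 0.23). PKP3, a desmosomal plakophilin, stood at 4.22, 3.66 and 3.49 CPM and at 7.75, 5.51 and 5.51 CPM (0.72, SE 0.19). SPNS2, a sphingosine-1-phosphate exporter, stood at 3.14, 3.90 and 3.22 CPM and at 6.38, 5.18 and 5.02 CPM (0.69, SE 0.23). None of the 3 overlapped between the groups, and none was called without a replicate term (edgeR adjusted p 0.869, 0.999 and 0.999). MAML2, a Notch coactivator, CAV2, a caveolin, PLCD3, a phospholipase C, ACYP2, AKNA and PHOSPHO2 had log2 fold changes of 0.54 to 0.71, also without overlap. CYP1B1, a cytochrome P450, stood at 109, 116 and 115 CPM and at 123, 142 and 142 CPM and was called in the 6 PBS libraries with a term for replicate 1 (adjusted p 0.0433).

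ZNF8-ERVK3-1, a readthrough model, was higher at 10.5, 8.93 and 8.99 CPM in sgControl PBS and 16.9, 19.0 and 15.8 CPM in sgEGR1 PBS, while ERVK3-1, which lies inside it, was lower at 35.8, 37.7 and 33.8 CPM and 28.9, 29.1 and 28.2 CPM. Both lay wholly apart and in opposite directions. Their exons overlap on the same strand, so the division of reads between them is uncertain. CRYM, chosen after its values were seen, also passed 2-fold with a log2 fold change of 1.16 (SE 0.52), but its groups overlapped at 1.18 to 3.14 CPM and 2.64 to 5.32 CPM.

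**Figure D3:**
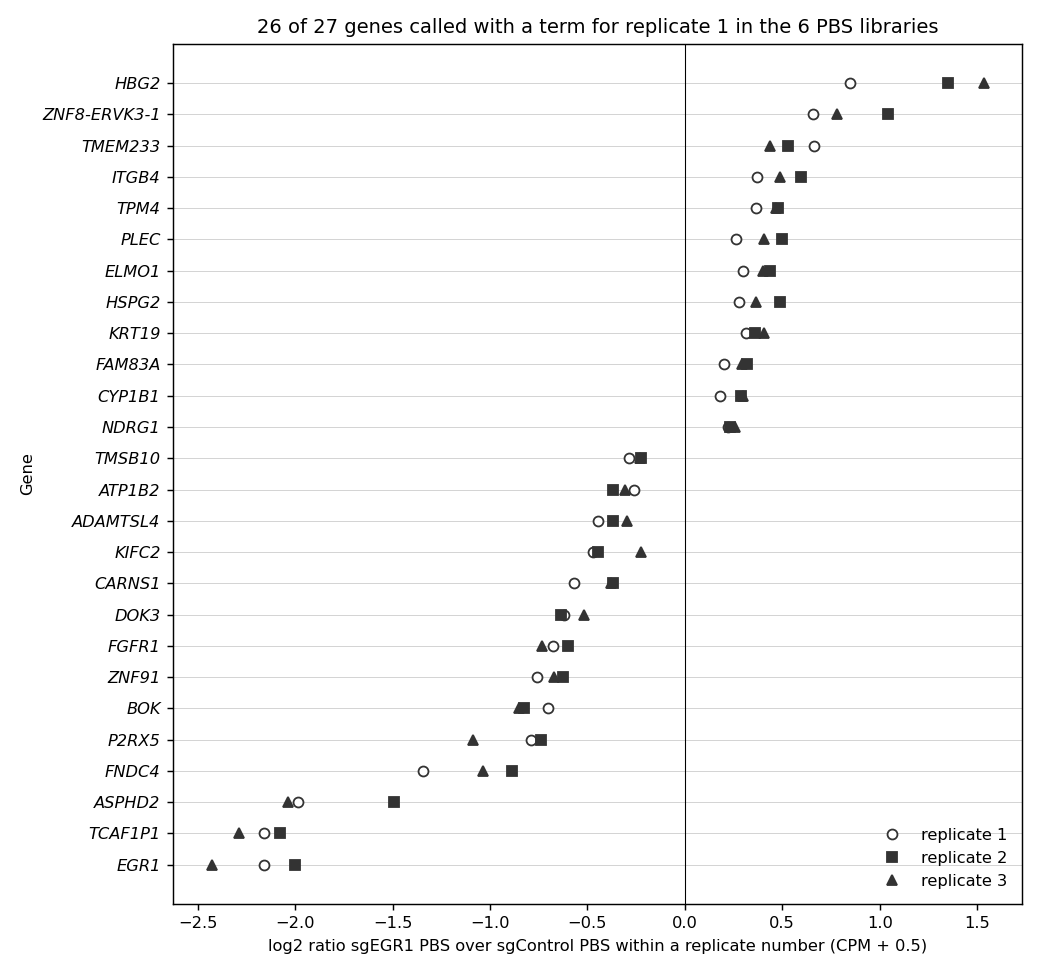
Log2 ratio of sgEGR1 PBS over sgControl PBS within each replicate number (x axis, CPM + 0.5) for 26 of the 27 genes called in the 6 PBS libraries with a term for replicate 1 (y axis); each symbol is 1 replicate number. For every gene drawn the 3 ratios lie on one side of 0, among them the ratios of -2.16, -2.003 and -2.43 for EGR1 and of 0.845, 1.35 and 1.53 for HBG2.

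Some of the calls rest on comparison within replicate numbers, because the genes differed more between replicate 1 and the other replicates than between the pools. ITGB4, the integrin beta 4 chain that binds laminin, stood at 115, 56.8 and 58.7 CPM in sgControl PBS and at 149, 86.2 and 82.6 CPM in sgEGR1 PBS. Replicate 1 was 1.99 times the mean of replicates 2 and 3 in sgControl and 1.76 times in sgEGR1, and the sgEGR1 library was the higher in each replicate number. Its log2 fold change was 0.46 (SE 0.38) without a replicate term, and the edgeR adjusted p passed from 0.999 to 0.0477 with a term for replicate 1 and to 0.0494 with the block.

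HSPG2, which encodes the heparan sulfate proteoglycan perlecan, followed the same order at 97.1, 43.8 and 45.9 CPM in sgControl PBS and 118, 61.7 and 59.3 CPM in sgEGR1 PBS (adjusted p 0.0477 with a term for replicate 1 and 0.0742 with the block). ATP1B2, a beta subunit of the Na,K-ATPase, showed the reverse, with replicate 1 the lowest, at 117, 169 and 172 CPM in sgControl PBS and 97.5, 131 and 139 CPM in sgEGR1 PBS (0.0477 and 0.0494). The groups of all 3 genes overlapped when replicate numbers were ignored. PLEC, a plakin that joins intermediate filaments to integrin beta 4, ELMO1, an adaptor of Rac activation, FAM83A, KRT19 and TMEM233 were likewise highest in replicate 1 of both pools, and their log2 fold changes in the 6 PBS libraries with a term for replicate 1 were 0.39, 0.38, 0.27, 0.36 and 0.56. The labels give a replicate number but no batch or day.

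A further set of calls lay at the edge of detection. ADAMTS7P3, a pseudogene on chromosome 15 whose exons overlap TBC1D2B on the opposite strand, had 0 CPM in all sgControl PBS libraries and 0.638, 0.521 and 0.767 CPM in sgEGR1 PBS. Against the floor of 3 counts per library, about 0.11 CPM, this was at least 5.62-fold higher, and the edgeR adjusted p was 0.0562 without a replicate term and 0.0477 with a term for replicate 1. In the sgControl SCF libraries ADAMTS7P3 stood at 0.219, 0.366 and 0.377 CPM, so it was counted in that pool too. TCAF1P1, a pseudogene on chromosome 7, showed the opposite after PBS. It had 1.73, 1.61 and 1.94 CPM in sgControl PBS and 0 in sgEGR1 PBS, at least 15.4-fold lower. After SCF it was at 2.76, 1.66 and 0 CPM in the libraries labelled sgEGR1, so it was counted in 2 libraries of that pool. ASPHD2 stood at 1.48, 0.905 and 1.55 CPM in sgControl PBS and at 0 in sgEGR1 PBS. After SCF it was at 0, 0 and 1.76 CPM in sgControl and at 0, 0.624 and 0.125 CPM in the libraries labelled sgEGR1. Of the 12 DESeq2 calls with one group at 0, 4 were counted in a single library, namely ATP5MF-PTCD1, FAM220A, LOC107986121 and RPS10-NUDT3, and the remaining KIFC1, LRP4-AS1, RGPD5, SYNGR4, ATF6B and INO80B-WBP1 did not exceed 2.21 CPM in any PBS library.

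In edgeR without a replicate term, against a background of 2.27% of genes higher and 2.35% lower at an unadjusted p under 0.05, 0 genes of any list were called. Erythroid transcription factors had 0 of 15 genes past the unadjusted threshold and a median log2 fold change of 0.029, and heme synthesis enzymes 0 of 11 and -0.041. Of 21 genes of the red cell membrane and skeleton, 1 was higher and 2 were lower. The lower ones were the Rh antigen genes RHD, at 7.18, 9.88 and 10.8 CPM in sgControl PBS and 6.04, 6.78 and 6.07 CPM in sgEGR1 PBS, and RHCE, at 10.5, 10.7 and 11.9 CPM and 8.34, 8.86 and 6.31 CPM. The groups did not overlap for either, their log2 fold changes were -0.56 (SE 0.17) and -0.49 (SE 0.18), and as paralogs they can share reads. STEAP3, the endosomal ferrireductase, was the 1 lower gene of 12 iron genes, at -0.18 (SE 0.062). With a term for replicate 1, beside 10.5% of all genes, erythroid transcription factors had 3 higher (GATA2, TAL1 and FOXO3) and 0 lower. Heme synthesis enzymes then had 0 higher and 1 lower (UROS), membrane and skeleton genes 3 higher and 2 lower, and iron genes 0 higher and 1 lower. None of these was called in that fit.

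Of 24 tested components of Kit and erythropoietin receptor signalling, 2 were higher and 1 was lower at an unadjusted p under 0.05 without a replicate term. With a term for replicate 1 the counts were 6 higher and 1 lower, beside 10.5% of all genes, and 0 were called. KIT itself stood at 521, 462 and 507 CPM in sgControl PBS and at 524, 554 and 548 CPM in sgEGR1 PBS, a log2 fold change of 0.13 (SE 0.049) with an edgeR adjusted p of 0.999. CBL, a ubiquitin ligase that removes active Kit, stood at 25.1, 20.5 and 21.4 CPM and at 27.7, 26.3 and 26.9 CPM (0.27, SE 0.12). KIT and CBL did not overlap between the groups, and the adaptor GRB2, at -0.10 (SE 0.044), did not either.

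Downstream of Kit, 0 of 22 immediate early and AP-1 genes passed the unadjusted threshold. FOSL2, an AP-1 subunit, stood at 13.68, 10.6 and 9.92 CPM in sgControl PBS and at 17.3, 13.74 and 14.3 CPM in sgEGR1 PBS, which narrowly did not overlap. Its log2 fold change was 0.40 (SE 0.19), with an edgeR adjusted p of 0.999 without a replicate term and 0.0313 with a term for replicate 1 once the library labelled sgEGR1 SCF replicate 3 was left out. FOS stood at 21.4, 5.23 and 5.19 CPM in sgControl PBS and at 16.7, 2.53 and 3.52 CPM in sgEGR1 PBS, far higher in replicate 1 of both pools. Of 13 ERK feedback genes, ETV4 was higher with 0.80 (SE 0.32) and DUSP5 lower with -0.79 (SE 0.34), at means of 1.34 and 0.538 CPM over the PBS libraries.

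**Figure D4:**
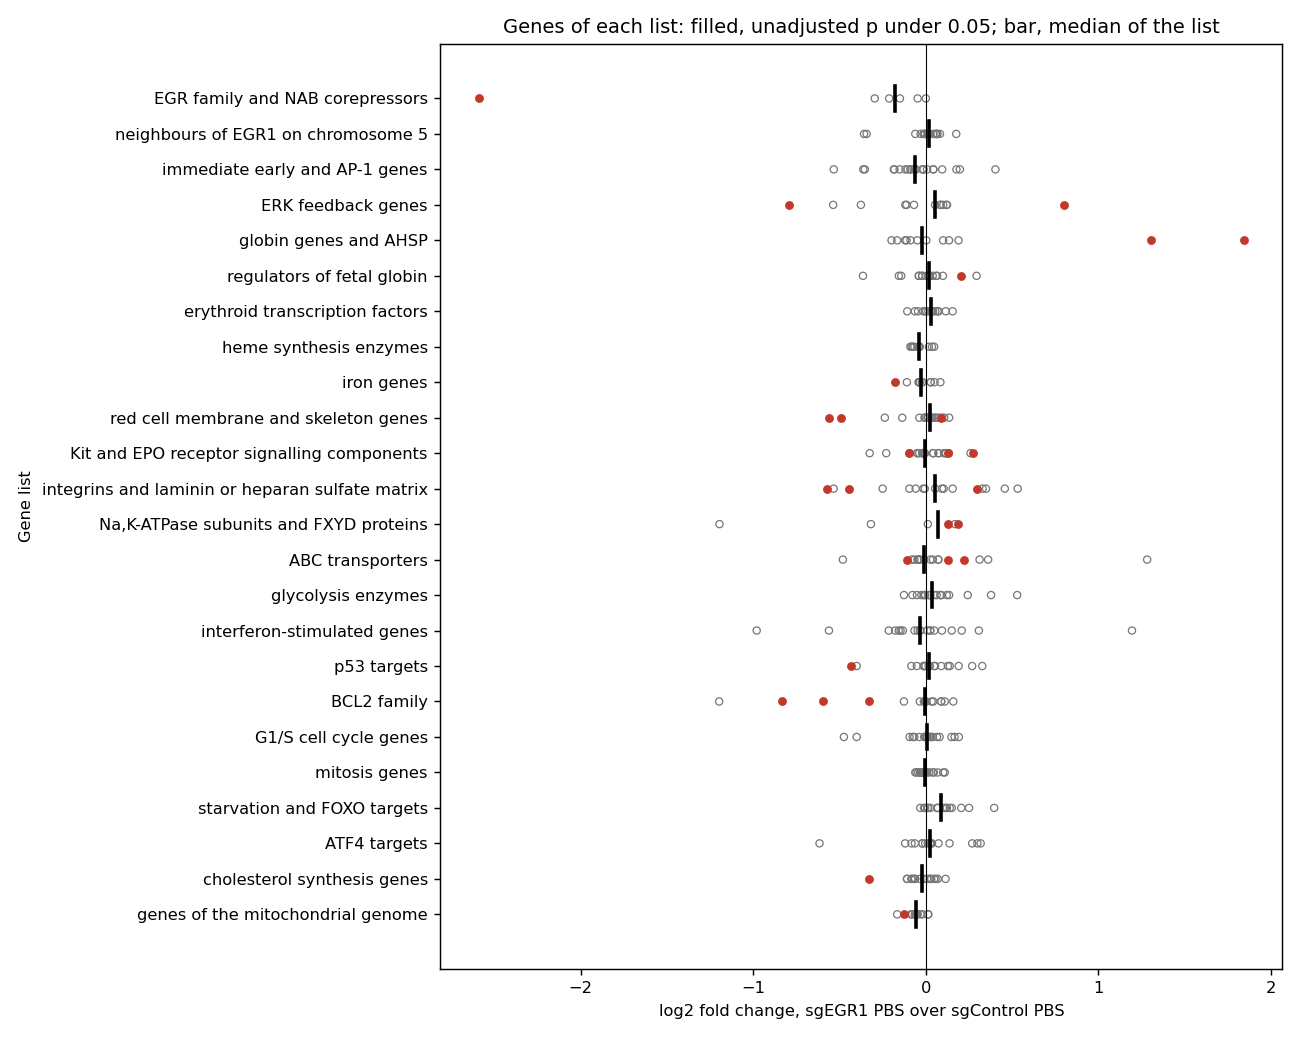
Log2 fold change of sgEGR1 PBS over sgControl PBS (x axis) for each tested gene of 24 lists (y axis); filled points have an unadjusted edgeR p under 0.05, open points do not, and the black bar is the median of the list. The medians lie between -0.18 and 0.09, and the filled points farthest from 0 are EGR1 on the left and HBG2 and HBG1 on the right.

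Of 16 BCL2 family genes tested, 0 were higher and 3 lower at an unadjusted p under 0.05, beside 2.35% of all genes lower, and the median log2 fold change was -0.0034. With a term for replicate 1 the counts were 1 higher, BCL2L11, which also favours cell death, and the same 3 lower. The 3 lower genes, PMAIP1, BOK and BIK, favour cell death, as do BAX, BAK1, BAD and BBC3, whose log2 fold changes of -0.011, 0.034, -0.0038 and 0.089 did not pass. PMAIP1, which encodes NOXA, stood at 8.45, 7.01 and 7.09 CPM in sgControl PBS and at 5.87, 3.87 and 5.20 CPM in sgEGR1 PBS (-0.60, SE 0.19). BOK stood at 14.7, 10.1 and 9.15 CPM and at 8.85, 5.47 and 4.85 CPM (-0.83, SE 0.27), and BIK at 8.52, 10.2 and 8.14 CPM and at 7.19, 7.19 and 7.01 CPM (-0.33, SE 0.12). None of the 3 overlapped between the groups. BOK was called in the 6 PBS libraries with a term for replicate 1 (edgeR adjusted p 0.0328), where PMAIP1 and BIK were not (0.198 and 0.437). FAS, a death receptor and the 1 lower gene of 18 p53 targets, stood at 7.76, 8.58 and 7.91 CPM and at 6.30, 5.77 and 5.89 CPM (-0.43, SE 0.096).

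Integrin and matrix genes had values in both directions, with 1 higher and 2 lower of 17 at an unadjusted p under 0.05. ITGAE and ITGB2, the chains of leukocyte integrins, had log2 fold changes of -0.57 (SE 0.16) and -0.45 (SE 0.15), and ITGA5, a fibronectin receptor chain, had 0.30 (SE 0.11). None of these 3 was called. With a term for replicate 1 the list had 4 higher and 2 lower, with ITGB4 and HSPG2 called. Na,K-ATPase genes had 2 higher of 6, ATP1B3 and FXYD5 at 0.13 (SE 0.050) and 0.18 (SE 0.073). Of 19 ABC transporters, ABCC4, an exporter of cyclic nucleotides, was higher at 128, 119 and 130 CPM in sgControl PBS and 138, 147 and 153 CPM in sgEGR1 PBS (0.22, SE 0.051), ABCF2 had 0.13 (SE 0.053) and ABCA7 -0.11 (SE 0.042). Genes of the mitochondrial genome had 1 lower of 13. Glycolysis enzymes, interferon-stimulated genes, G1/S genes, mitosis genes, starvation and FOXO targets and ATF4 targets each had 0 genes past the unadjusted threshold without a replicate term, out of 20, 20, 21, 20, 16 and 17. With a term for replicate 1, beside 10.5% of all genes, glycolysis enzymes and G1/S genes each had 3 higher and 1 lower, starvation and FOXO targets 3 higher and 0 lower, ATF4 targets 5 higher and 0 lower, and interferon-stimulated and mitosis genes 0 in either direction. None of these genes was called.

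Summed levels of cell type markers overlapped between the pools. The 12 erythroid markers were all expressed, with a summed level of 21880 to 24790 CPM in sgControl PBS and 23380 to 24550 CPM in sgEGR1 PBS. Of 10 megakaryocyte markers, PF4, PPBP, GP9, VWF and SELP were at 0 in all 6 libraries, and the sum was 36.9 to 50.8 CPM against 36.4 to 51.4 CPM. Of 12 myeloid markers, 7 were at 0, MPO and ELANE among them, and the sum was 12.4 to 18.2 CPM against 12.6 to 15.96 CPM. Of 9 lymphoid markers, 7 were at 0, CD3E and CD3D among them, and the sum was 21.8 to 29.2 CPM against 22.8 to 28.6 CPM, nearly all of it PTPRC. Of 8 mast cell and basophil markers, FCER1A and CMA1 were at 0, and the sum of 215 to 430 CPM against 269 to 469 CPM was highest in replicate 1 of both pools. Of 9 stem and progenitor markers, 5 were at 0 and the sum was 93.6 to 124 CPM against 104 to 121 CPM. Of 10 markers of epithelial and fibroblast cells, which include virus producer cells, 4 were at 0, COL1A1 and COL1A2 among them, and the sum was 380 to 381 CPM against 378 to 390 CPM. That sum was mostly EPCAM, CDH1 and KRT19, and KRT19 is among the 27 genes called.

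The promoters were searched for the sequence that EGR1 binds. The letters GCGTGGG, searched on both strands, stood in the window of 12.3% of the 179 lower genes and 8.91% of the 202 higher genes with a promoter in the RefSeq table, out of all genes without overlap at an unadjusted p under 0.05. Among 10992 tested genes with a promoter the share was 8.75%, and CArG boxes were in 1.68%, 2.97% and 0.91% of the same sets. These shares are a description of the windows and were not tested.

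The differences between the pools could be looked for again in the SCF libraries, which share no library with the PBS comparison. Of the 390 genes that separated the PBS libraries, sgEGR1 SCF replicates 1 and 2 each lay on the same side of the sgControl SCF mean for 295 (75.6%), and the library labelled sgEGR1 SCF replicate 3 for 188 (48.2%). Over all 11216 genes of at least 2 CPM the shares on the side of the PBS difference were 60.6%, 55.8% and 48.2%. Of the 27 called genes, 26, 24 and 13 kept their side. The sgControl SCF mean takes no account of replicate number, by which some of the 27 differ. ELMO1, higher in sgEGR1 PBS, stood at 91.2, 52.3 and 51.2 CPM in sgControl SCF, a mean of 64.9 CPM. In the library labelled sgEGR1 SCF replicate 3 it stood at 59.0 CPM, below that mean but above sgControl SCF replicate 3. How many of the 27 this affects was not counted. Of the 12 highest and 12 lowest genes of the naming rule, 24, 22 and 19 kept their side. The median log2 distances of these from the sgControl SCF mean, towards the PBS side, were 0.63, 0.69 and 0.039. The library labelled replicate 3 thus stood near the sgControl SCF mean of these genes, with most of the 24 slightly on the sgEGR1 side. Its share of gamma globin among the beta-like globins, 0.697%, was nearer to the 0.474% to 0.649% of sgControl SCF than to the 0.921% and 1.48% of the other sgEGR1 SCF libraries.

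Values after SCF come from fits with a term for replicate 1. Apart from ZNF91 and TPM4, genes are given both ways, keeping or dropping the library labelled sgEGR1 SCF replicate 3. Its EGR1 level after SCF had singled that library out, so dropping it was a choice made with values known. EGR1 had a log2 fold change of -1.11 (edgeR adjusted p 0.756) with it and -2.08 (0.00115) without it. HBG2 stood at 29.6, 29.6 and 45.6 CPM in sgControl SCF and at 51.9, 82.1 and 38.8 CPM in the libraries labelled sgEGR1 SCF, and its log2 fold change was 0.72 (0.659) with that library and 1.00 (0.0215) without it. When that library was kept, FNDC4 had -0.92 (edgeR adjusted p 0.488), P2RX5 -0.70 (0.756), NDRG1 0.18 (0.4825) and ITGB4 0.32 (0.4655). None of these was called in that fit. Leaving it out, the edgeR adjusted p was 0.0133 for FNDC4 at -1.29, 0.0396 for P2RX5 at -1.17 and 0.00724 for ZNF91 at -0.86. The same fit gave 0.0138 for NDRG1 at 0.23 and 0.0133 for ITGB4 at 0.41. TPM4 at 0.36 kept its direction but was not called (0.101). The difference between the pools before and after SCF was itself not tested for these genes.

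**Figure D5:**
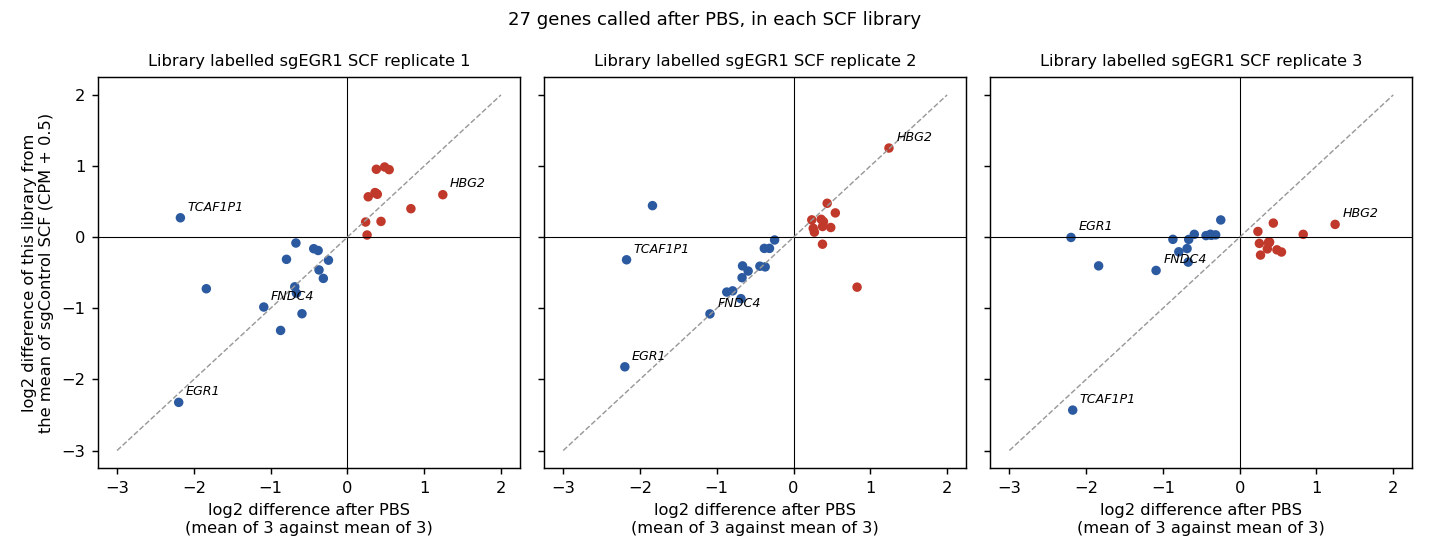
Log2 difference of each library labelled sgEGR1 SCF from the mean of the 3 sgControl SCF libraries (y axes, CPM + 0.5) against the mean difference between the pools after PBS (x axes) for the 27 called genes, 1 panel per library; the dashed line marks equal differences. In the panels of replicates 1 and 2, 26 and 24 genes lie on the side of their PBS difference, and in the panel of replicate 3 most lie near 0 and 13 keep their side. The sgControl SCF mean takes no account of replicate number, by which some of these genes differ.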

How the data were processed

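RNA-seq of 12 HUDEP-2 libraries was used, of which 6 after PBS form the comparison. The authors aligned reads to hg38 with HISAT 2.1.0 and deposited estimated counts per gene from StringTie 2.1.1. The labels also name bcl2fastq and SAMtools. The annotation release is not given in the sources used here, and the kit in the labels is not the one in the methods. All deposited values were whole, so rounding changed none, and 0 columns of per-sample values were left unused. The column code SG2 was read as sgEGR1 because the labels hold no other construct besides the scrambled control. The methods call the replicates biological and isolated one by one, and the labels give numbers only. Whether they were separate cultures is not stated, so p-values measure the spread between these libraries. Every pair of PBS replicates differed beyond counting noise (chi-square per degree of freedom 4.37 to 15.0).

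The filter filterByExpr kept 15492 genes. In R 4.3.3, edgeR 4.0.16 gave quasi-likelihood F tests, with TMM factors, 1 coefficient per group, all 12 libraries in the fit, and Benjamini-Hochberg adjustment over all genes. A gene was called at an adjusted p under 0.05. Fits with a term for replicate 1, with the replicate number as a block, from the 6 PBS libraries, with DESeq2 1.42.0 (the tool of the study), and without each library were alternatives. Residuals of same-numbered PBS libraries correlated at 0.345, 0.174 and 0.212, all over 0.1. Between replicates 2 and 3 of opposite guides the correlations were 0.0808 and 0.0503. Between replicate 1 and the others they were -0.238 to -0.178. The residuals thus set replicate 1 apart, and pairing of replicates 2 and 3 by number is less clear. Any pairing by number comes from the data, as the labels give numbers only. On simulated counts of 15492 genes for this comparison, edgeR recovered 180 of 200 genes changed 2-fold with 6 false calls, and DESeq2 190 with 31. With 0 changed genes, edgeR made 0 calls and DESeq2 made 7, all false. The simulated counts were drawn independently around group means, and only genes over 2 CPM were changed. They held no replicate 1 effect and no library that went against its label. The share recovered therefore does not measure what could be detected in the real libraries.

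The groups, members and gene lists were chosen with earlier results of these data known. The genes named were EGR1 and HBG2, all genes called by edgeR on 12 libraries in its 3 designs or by DESeq2, the 12 highest and 12 lowest log2 fold changes among genes of at least 2 mean CPM with an unadjusted p under 0.05 and no overlap, the 5 highest and 5 lowest called without the library labelled sgEGR1 SCF replicate 3, and up to 4 genes per list. Gene positions come from GENCODE v44. Floors cover counting error only. Some members and lists are not reported here.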

Additional observations from a re-analysis of the deposited data

Results flagged for a closer look

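ATF6B differed in opposite directions between the pools after PBS and after SCF, with no overlap of groups on either side. It stood at 0.361, 0.354 and 0.737 CPM in sgControl PBS and at 0 in sgEGR1 PBS, a fitted log2 difference of -6.79 that depends on the prior count and is no bound. After SCF it stood at 0, 0.267 and 0 CPM in sgControl and at 0.586, 0.693 and 0.811 CPM in the libraries labelled sgEGR1, a fitted log2 difference of 2.95. The difference between the contrasts was not tested, all values are within a few times the floor of about 0.1 CPM, and the exons of ATF6B overlap those of TNXB on the same strand.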

How the results depend on the processing

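The number of genes called between the pools depended on how the spread was estimated. The 12-library edgeR test without a replicate term called 0 genes (715 before adjustment). It called 4 with a term for replicate 1, 2 with the replicate block, 3 from replicates 2 and 3 only and 1 with no filter, and 0 with other scalings, a stricter filter or a fold threshold. The 6 PBS libraries gave 27 calls with a term for replicate 1 and 10 with the replicate block. DESeq2 gave 20, 101 with a term for replicate 1 and 15 from the 6 PBS libraries. Leaving out 1 library at a time gave 0 to 1 calls without a replicate term and 0 to 54 with a term for replicate 1. The 54 arose without the library labelled sgEGR1 SCF replicate 3, and 9 without sgEGR1 SCF replicate 2. The cause was not tested.

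EGR1 kept its direction throughout and was called at log2 fold changes of -2.580 and -2.576 in the 6 PBS libraries with a term for replicate 1 and with the replicate block. DESeq2 called it at -2.557, at -2.560 with a term for replicate 1 and at -2.565 in the 6 PBS libraries. HBG2 was called at 1.261 in both 6-library designs and by DESeq2 at 1.270 with a term for replicate 1 and 1.303 in the 6 PBS libraries. Without 1 library the EGR1 value ran from -3.134 to -2.147 and that of HBG2 from 1.148 to 1.531, and both were called only without the library labelled sgEGR1 SCF replicate 3, at -2.595 and 1.269. Over the 12 libraries the replicate block changed no call other than ITGB4 and ATP1B2.

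Of 85 genes recomputed, 4 changed sign and LOC107986121 went to 0 when 1 library was left out, and all of these but HSPG2 were counted in a single PBS library. Without sgControl PBS replicate 2, ATP5MF-PTCD1 was at 0 and 0.2308 and RPS10-NUDT3 at 0 and 0.5728, without and with a term for replicate 1. Without sgEGR1 PBS replicate 2, FAM220A was at 0 and -0.217, and without sgEGR1 PBS replicate 3 LOC107986121 was at 0. HSPG2 was at -0.04697 without sgEGR1 PBS replicate 1. Over all libraries left out, the extremes were -9.989 to 0.2308 for ATP5MF-PTCD1, -10.58 to 0.5728 for RPS10-NUDT3, -0.217 to 9.803 for FAM220A, 0 to 10.48 for LOC107986121 and -0.04697 to 0.8232 for HSPG2. With 3 libraries a group, an exact test of 1 gene cannot go below 0.1.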
